A study of Mus musculus with 4 samples.

Results

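Antigen presentation genes encode the proteins with which a cell shows peptides to T cells. The 35 genes were a named list, taken as 12 class II genes, 17 class I genes, 3 genes of the RFX complex and 3 genes of costimulation, and were chosen by name. A merged ATAC-seq peak belonged to a gene if its centre lay inside the gene body or if that gene was the nearest of 21887 protein-coding genes, up to 100 kb away. Under this rule 142 of 74695 merged peaks belonged to 34 of the 35 genes, and B2m had 0. The peaks came from brain parenchymal macrophages sorted from mice, profiled by Omni-ATAC, in which a transposase cuts open chromatin. The MDM group and the YSM group had 2 libraries each. MDM was read as monocyte-derived macrophages from the title, while YSM is not spelled out in the labels. Both groups carried the genotype label Ms4a3-Ai9 and the treatment label DR-3x. Ms4a3 marks progenitors that give rise to monocytes and granulocytes, and Ai9 is a fluorescent reporter switched on by Cre recombinase. The meaning of DR-3x is not given, nor is it stated if separate animals gave the 2 libraries of a group.

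Class I molecules carry peptides cut in the cytosol by the immunoproteasome, pumped into the endoplasmic reticulum by the TAP transporter and loaded onto a heavy chain paired with beta-2 microglobulin. Class II molecules carry peptides cut in endosomes, and the invariant chain Cd74 and the H2-DM and H2-O proteins control their loading. The RFX complex and NF-Y bind the X and Y boxes of the promoters of both classes, where CIITA acts as the coactivator of class II genes and NLRC5 as that of class I genes. Microglia at rest hold little class II protein, and brain macrophages raise it under interferon-gamma.

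Of the 35 genes, 27 had a promoter window in RefSeq (build GRCm38.p6), reaching from 250 bases before the transcription start to 50 bases after it. Cd40, Cd74, Cd86, Ciita, H2-Ab1, Nlrc5, Rfxap and Tap2 had none. The Y box core GATTGG, searched on both strands, stood in the windows of 7 of 9 class II genes and 9 of 15 class I genes, against 18.2% of 21263 windows of protein-coding genes. The X1 box core AGCAAC stood in the windows of 3 of 9 class II genes and 1 of 15 class I genes, against 14.0% of all windows. The GAS motif TTCNNNGAA, an interferon-gamma activated site, stood at 1 of 9 class II genes (H2-DMb2) and 1 of 15 class I genes (Psmb8), against 7.69% of all windows. The ISRE core GAAANNGAA, read by interferon regulatory factors, stood at 1 of 9 class II genes (Ctss), against 8.15% of all windows. In class I it stood at 4 of 15 genes, B2m, Erap1, H2-T23 and Psme1. All 4 searches took these fixed letters alone, so a window without a match may still hold a variant of the element. The 150 bases before the start are given here for 5 class II and then 5 class I genes. These are the genes of both classes with a Y core 35 to 65 bases before the start, and Psmb8, which has a GAS match and neither box core. That range was chosen after the positions were seen, and other windows with matches are not printed. The sequences run 5′ to 3′ on the strand of the gene, with matches to any of the 4 motifs in capitals.
H2-Aa, chr17:34287824-34287973, minus strand: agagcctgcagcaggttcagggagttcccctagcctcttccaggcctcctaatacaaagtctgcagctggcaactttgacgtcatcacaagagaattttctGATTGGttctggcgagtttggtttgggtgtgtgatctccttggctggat
H2-Eb1, chr17:34305717-34305866, plus strand: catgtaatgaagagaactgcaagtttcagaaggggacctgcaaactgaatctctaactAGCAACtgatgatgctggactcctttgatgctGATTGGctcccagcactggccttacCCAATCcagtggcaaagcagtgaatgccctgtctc
H2-DMb1, chr17:34153041-34153190, plus strand: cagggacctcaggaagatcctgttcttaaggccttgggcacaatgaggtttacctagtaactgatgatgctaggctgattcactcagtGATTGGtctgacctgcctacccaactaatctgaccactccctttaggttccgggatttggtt
H2-Ob, chr17:34238755-34238904, plus strand: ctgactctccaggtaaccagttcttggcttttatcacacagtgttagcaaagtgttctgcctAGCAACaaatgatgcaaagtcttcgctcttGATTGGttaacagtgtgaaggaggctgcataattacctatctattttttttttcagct
H2-Oa, chr17:34092229-34092378, plus strand: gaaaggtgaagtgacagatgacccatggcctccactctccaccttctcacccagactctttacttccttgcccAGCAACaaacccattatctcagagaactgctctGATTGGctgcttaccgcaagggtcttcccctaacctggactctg
B2m, chr2:122147537-122147686, plus strand: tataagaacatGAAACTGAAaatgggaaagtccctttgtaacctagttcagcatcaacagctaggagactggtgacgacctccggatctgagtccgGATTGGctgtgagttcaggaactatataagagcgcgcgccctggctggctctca
H2-D1, chr17:35262944-35263093, plus strand: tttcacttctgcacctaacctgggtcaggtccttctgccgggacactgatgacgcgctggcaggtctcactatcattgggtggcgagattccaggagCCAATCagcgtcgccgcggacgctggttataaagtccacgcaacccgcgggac
H2-Q4, chr17:35379467-35379616, plus strand: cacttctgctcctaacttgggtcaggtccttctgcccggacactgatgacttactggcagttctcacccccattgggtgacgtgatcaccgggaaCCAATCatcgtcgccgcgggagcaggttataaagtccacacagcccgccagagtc
H2-T23, chr17:36032702-36032851, minus strand: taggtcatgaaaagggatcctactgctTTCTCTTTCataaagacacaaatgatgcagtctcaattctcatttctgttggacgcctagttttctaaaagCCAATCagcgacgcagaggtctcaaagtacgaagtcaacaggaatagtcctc
Psmb8, chr17:34198045-34198194, plus strand: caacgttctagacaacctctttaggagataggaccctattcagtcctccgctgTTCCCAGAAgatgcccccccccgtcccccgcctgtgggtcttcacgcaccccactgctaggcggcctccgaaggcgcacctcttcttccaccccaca

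Of the genes with a Y box core, 5 of 7 in class II and 4 of 9 in class I had it begin between 35 and 65 bases before the start. This range was chosen after the positions were seen, and the share of all windows with a Y core in it is not given here. The Y cores of H2-DMa, H2-DMb2, H2-K1, H2-Q7, Pdia3, Psmb9 and Tap1 began outside the range. In H2-Aa, H2-DMb1, H2-Eb1, H2-Oa and H2-Ob the Y core read GATTGG on the strand of the gene, at 49, 62, 60, 44 and 58 bases before the start. H2-Eb1 also had the reverse letters 35 bases before the start. In H2-D1, H2-Q4 and H2-T23 the match lay on the other strand, as CCAATC, at 53, 55 and 52 bases before the start, while B2m had GATTGG at 54. The H2-D1 and H2-Q4 sequences also hold ATTGGG on the strand of the gene, farther from the start, which the search did not take. Which of these letters form the Y box was not tested, so the strand of the matches is not a comparison of Y boxes between the classes. The Y core of Rfx5 at 54 bases, on the other strand, also fell in this range, 8 bases after an X1 core on the strand of the gene. An X1 core stood ahead of a Y core on the same strand at H2-Eb1, H2-Ob and H2-Oa, with 32, 30 and 33 bases from the first base of X1 to the first base of Y. Such a pair on the same strand within 40 bases, a limit set after seeing these spacings, occurred in 0.235% of all windows. The H2-Aa and H2-DMb1 windows lacked the exact X1 letters searched, which says nothing of RFX binding there. The CCAATC at Tap1 and the GATTGG at Psmb9 were the same letters, because these genes start 225 bp apart in opposite directions.

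**Figure D1:**
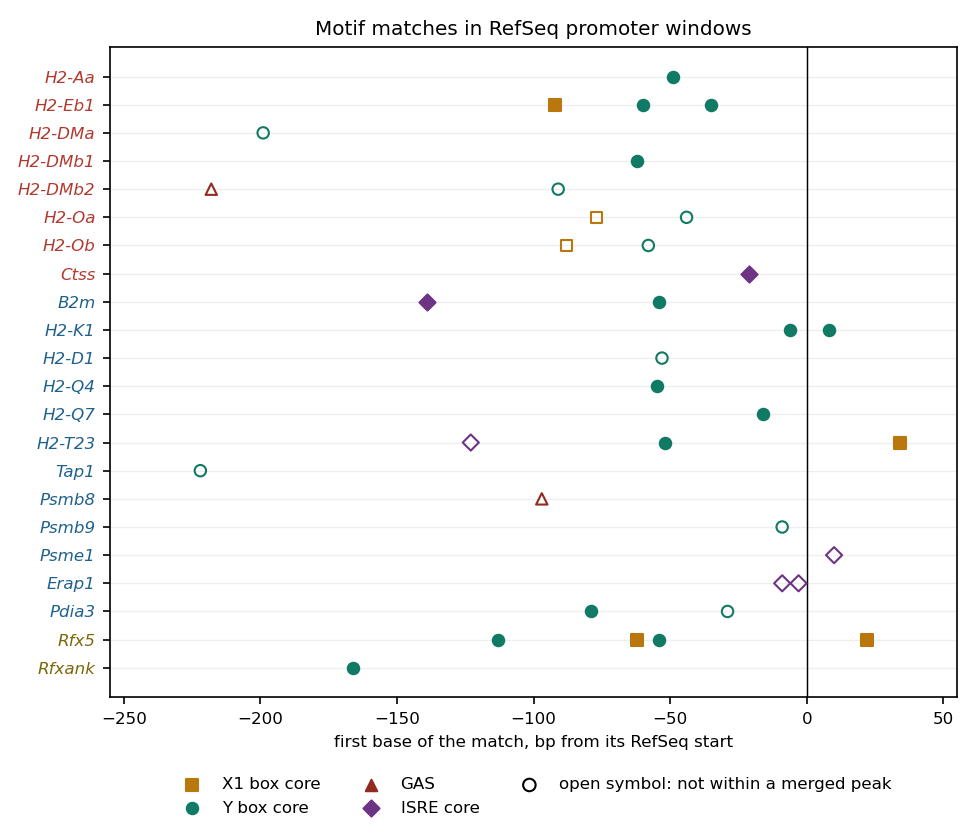
Positions of motif matches in the RefSeq promoter windows of the genes that had any. The x axis gives the first base of each match in bp from its transcription start, filled symbols lie within a merged peak and open ones do not, and gene names are red for class II, blue for class I and olive for the RFX complex. Of the genes with a Y box core, 5 of 7 in class II and 4 of 9 in class I have it between 35 and 65 bases before the start, a range chosen after the positions were seen.

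Merged peaks covered some of these boxes and not others. The peaks at H2-Aa (34287729 to 34287947, 4 subpeaks), H2-Eb1 (34305766 to 34305969, 4) and H2-DMb1 (34152892 to 34153350, 7) held the Y core. Subpeaks are the library-level peaks combined into a merged peak. With at most 3 of them, at least 1 of the 4 libraries had no call there. A number of 4 or more allows a call in every library, though a library may give several, and the number does not say which libraries called the peak. The H2-Ob peak at the start (34238901 to 34239101, 1 subpeak) left out its X1 and Y cores. The first H2-Oa peak (34092478 to 34092783, 4 subpeaks) began 99 bp after the start, so that both of its cores lay outside. Over all matches, 4 of 8 Y cores of class II windows (at 3 genes) and 6 of 10 of class I windows (at 6 genes) lay within a merged peak. The letters shared by Tap1 and Psmb9 were counted for each. The share of Y cores within a merged peak over all windows is not given here, so these counts have no background. The CCAATC match of H2-D1 lay outside, since its peak (35262804 to 35263004, 4 subpeaks) ended ahead of it. The GAS match of Psmb8 and the ISRE match of H2-T23 lay outside the peaks that overlapped their windows. The ISRE matches of Erap1 and Psme1 and the GAS match of H2-DMb2 were not within a merged peak either. The ISRE match of B2m lay within a peak of 4 subpeaks, and that of Ctss within a peak of 1.

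Class II genes held 67 merged peaks, with a median of 5 per gene and a range of 1 to 14. Class I genes held 41, with a median of 2 per gene and a range of 0 to 12. At least 1 peak of 4 or more subpeaks was present at 12 of 12 class II genes and 15 of 17 class I genes, against 13899 of 21887 protein-coding genes. Of the 35 genes 97.1% had at least 1 peak, against 70.3% of all protein-coding genes, whose median was 2. Gene lengths differed as well, and their part in these counts was not tested. Their median was 8564.5 bp in class II, 5058 bp in class I and 17169 bp over all protein-coding genes. These counts are descriptions without a test, since the merged list gives no value per library.

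**Figure D2:**
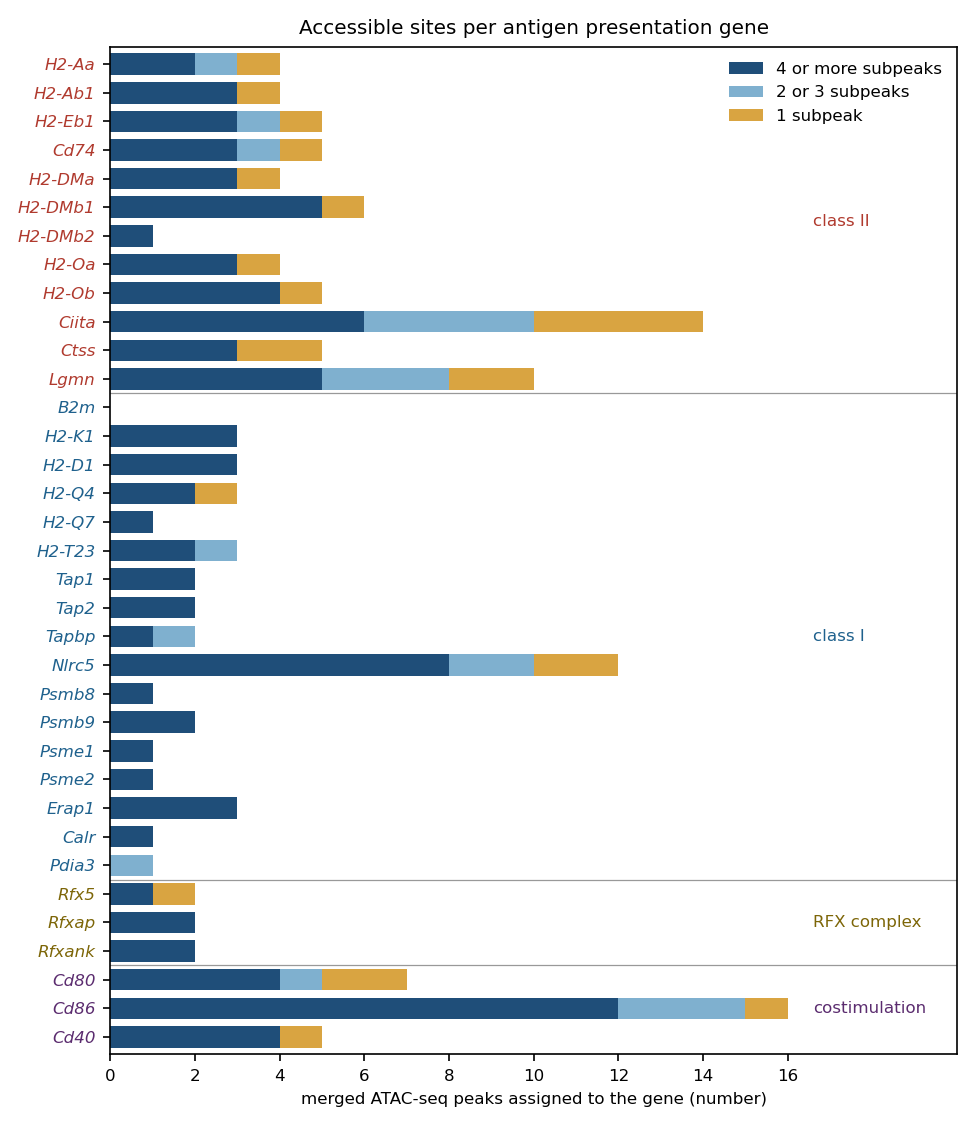
Merged peaks assigned to each of the 35 genes. Bars give the number of peaks, split by the number of library-level peaks (subpeaks) merged into each, with class II genes on top and class I, RFX complex and costimulation genes following. Cd86, Ciita, Nlrc5 and Lgmn hold 16, 14, 12 and 10 peaks, and B2m holds 0.

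The genes of the class II heterodimers each had a peak at their start or nearer end. H2-Aa, which encodes the alpha chain of I-A, had 4 peaks, with centres 8433 and 15 bp before its start and 1029 and 6956 bp after it. The peak 15 bp before the start and the one 8433 bp before it had 4 subpeaks, and those inside or beyond the gene had 2 and 1. H2-Ab1, the beta chain of I-A, had 4 peaks, of which 34263138 to 34263380 covered the lower end of the gene with 4 subpeaks. Its peaks 1585 and 5445 bp outside the gene had 4 subpeaks each, and a peak inside had 1. H2-Eb1, the beta chain of I-E, had 5 peaks, with centres at its start, 840 bp before it and 4004, 6605 and 7743 bp after it. These had 4, 4, 1, 5 and 2 subpeaks. In each of these genes the peak at the start or end was backed by 4 subpeaks, and the peaks with 1 lay elsewhere.

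Cd74, the invariant chain that blocks the groove of class II until endosomes are reached, had 5 peaks. The peak at its lower end (chromosome 18, 60803684 to 60803916) had 3 subpeaks, so that at least 1 library had no call there. The peak inside the gene at 60805712 to 60806079, 368 bp wide, had 4, as did peaks 8568 and 11632 bp outside the gene. A second peak inside had 1.

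The genes of peptide exchange, H2-DMa, H2-DMb1, H2-DMb2, H2-Oa and H2-Ob, held 4, 6, 1, 4 and 5 peaks. H2-DM removes the invariant chain fragment from class II, and H2-O restrains H2-DM. H2-DMb1 had a peak of 7 subpeaks 70 bp before its start and a 558 bp peak of 8 subpeaks 10787 bp beyond the gene, toward Psmb9. The peak of H2-DMb2 (34143018 to 34143225, 4 subpeaks) lay 108 bp outside the gene interval but 2128 bp before the RefSeq start, and no merged peak overlapped its promoter window. H2-DMb1 and H2-DMb2 are close paralogues, and how reads matching both were placed is not given in the sources used here. H2-DMa had a peak of 4 subpeaks 292 bp before its nearest start, which also lay inside Brd2, and a 462 bp peak of 5 subpeaks inside the gene. Also inside the gene were a 351 bp peak of 4 subpeaks, 10054 bp after the nearest start, and a peak of 1 subpeak, 3811 bp after it. H2-Oa had a peak of 7 subpeaks 12610 bp before its start. H2-Ob had a peak of 6 subpeaks 935 bp after its start, next to the peak of 1 subpeak at the start itself.

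Ciita, the class II coactivator, held 14 peaks, the most of the class II genes, and 11 of them lay inside the gene (chromosome 16, 10480014 to 10531064). Ciita is transcribed from several alternative promoters, which the gene intervals used here do not separate. The peaks with the most subpeaks were inside, at 10487798 to 10488377 (580 bp, 7 subpeaks) and 10495941 to 10496458 (518 bp, 7 subpeaks). The peak nearest to the lower end of the gene, 10479841 to 10480041, had 4 subpeaks. Of the 14 peaks, 6 had 4 or more subpeaks, 4 had 2 or 3 and 4 had 1. The 580 bp peak was the widest of all 142.

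The lysosomal proteases of the class II path had peaks of both kinds. Ctss, the cathepsin that trims the invariant chain, had 5 peaks, and the one at its start (chromosome 3, 95526687 to 95526887) had 1 subpeak. Its peaks 2889 and 5492 bp before the start and 3225 bp after it had 4 each. Lgmn, an asparaginyl endopeptidase that begins invariant chain cleavage, had 10 peaks, of which 5 had 4 or more subpeaks, including the one 155 bp before a start. The peak at 102395701 to 102395937 on chromosome 12, 237 bp wide and inside the gene 43273 bp after the nearest RefSeq start, had 3 subpeaks and was in the YSM list.

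The 5 class I heavy chain genes had 1 to 3 peaks each, and 1 peak of each gene overlapped its promoter window. H2-K1 had 3 peaks of 4 subpeaks each, with centres 20 bp after a start, 8321 bp after it and 5261 bp before one. H2-D1 had 3 peaks of 4 subpeaks each, 190 and 3887 bp before its start and 11773 bp after it. H2-Q4 had 3 peaks, of which the one 40 bp before its start had 4 subpeaks, and H2-Q7 had 1 peak, 67 bp before its start, also with 4. H2-T23, which encodes the Qa-1 chain, had peaks 23, 535 and 837 bp after its start with 4, 2 and 4 subpeaks. These genes are near-identical copies in part, so reads of one can be placed at another, and their peaks are uncertain for that reason.

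B2m, the light chain of all class I molecules, lies within the interval of Patl2. It received 0 peaks because no peak centre lay inside B2m itself, and the peaks nearest to its start were assigned to Patl2. A merged peak of 4 subpeaks at 122147523 to 122147776 on chromosome 2 had its centre 38 bp before the B2m start. Pdia3, a disulfide isomerase of the peptide loading complex, had 1 peak of 2 subpeaks inside the gene, while the peak over its promoter window (121413651 to 121413868, 4 subpeaks) was assigned to Catsper2. The same held for Psmb9, whose window was overlapped by a peak assigned to Tap1. These 3 peaks were counted neither for B2m nor for Pdia3 nor for Psmb9 under the nearest-gene rule.

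The peptide supply genes of class I shared a compact stretch of chromosome 17. The 272 bp peak at 34187400 to 34187671, with 8 subpeaks, lay in and around the 225 bp between Psmb9, an immunoproteasome subunit, and Tap1, a subunit of the TAP transporter. Tap1 had a second peak of 6 subpeaks, 472 bp beyond its higher end, and Psmb8, another immunoproteasome subunit, had 1 peak of 8 subpeaks and 434 bp with its centre 146 bp after the start. Tap2, the other TAP subunit, had 2 peaks of 4 subpeaks inside the gene, of which 1, at 34204458 to 34204702, covered its lower end. Psmb9 had its own 2 peaks of 4 subpeaks 1220 and 7680 bp outside the gene. The highest subpeak number in class I, 8, was reached at these Tap1 and Psmb8 peaks. Tapbp, which bridges TAP and class I, had 2 peaks, with 4 and 3 subpeaks 162 and 1324 bp after its start.

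**Figure D3:**
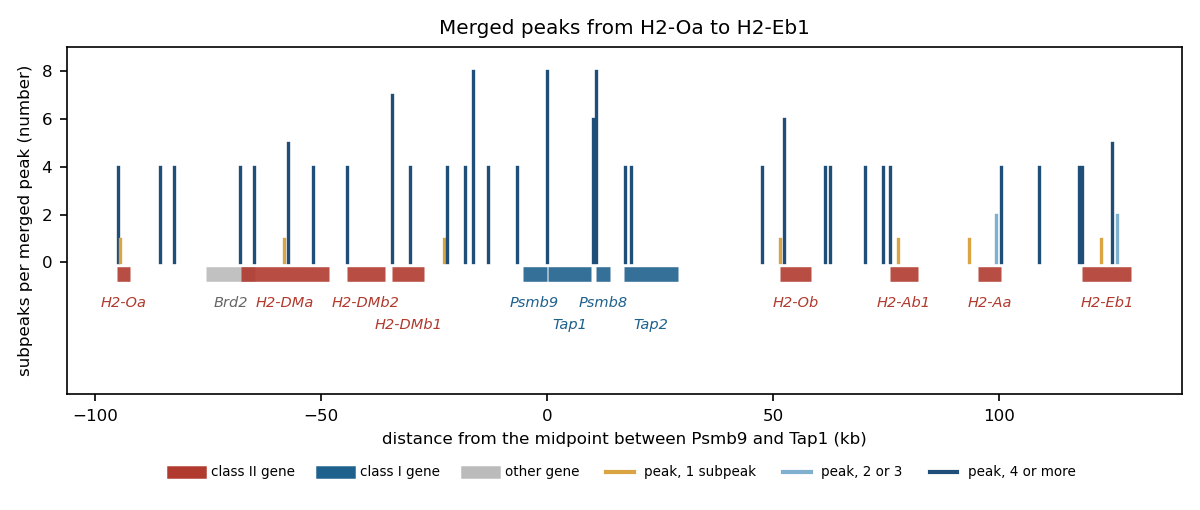
Merged peaks between H2-Oa and H2-Eb1. The x axis gives the distance in kb from the midpoint between Psmb9 and Tap1, the height of each line is the number of subpeaks of a merged peak, and horizontal bars are genes (red class II, blue class I, grey other). The peaks of 8 subpeaks stand at Psmb9 and Tap1, at Psmb8 and beyond H2-DMb1.

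From H2-Oa to H2-Eb1, 224296 bp, the list had 41 merged peaks, of which 32 had 4 or more subpeaks, against 57.7% of all merged peaks. The rule gave 39 of them to these class II and class I genes and 2 to Brd2 alone. Of the 41, 0 were in the MDM list and 0 in the YSM list, against 0 and 45 of the 3458 merged peaks of chromosome 17. As that chromosome had no MDM-listed peak, the MDM count of 0 was fixed. At 41 peaks a count of 0 allows a share of up to 7.32%, so the YSM count of 0 could not be told from the 1.48% of all merged peaks.

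Outside the major histocompatibility complex, Psme1 and Psme2, the activator subunits of the immunoproteasome, had 1 peak of 4 subpeaks each, 119 bp and 35 bp before a start. Calr, the calreticulin chaperone, had 1 peak of 4 subpeaks 89 bp before its start. Erap1, the aminopeptidase that trims peptides, had 3 peaks of 4 subpeaks each, 656 bp before and 130 and 414 bp after its start. Nlrc5, the class I coactivator, had 12 peaks, the most in class I. Its peak at the lower end of the gene (chromosome 8, 94434136 to 94434516) had 5 subpeaks, and 8 of the 12 had 4 or more. Its farthest peak, 16573 bp away, was also the farthest of the 142.

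A merged peak overlapped a promoter window of 24 of the 27 genes that had any. By list these genes were 7 of 9 in class II and 15 of 15 in class I. In the RFX complex there were 2 of 2, and in costimulation 0 of 1. Over protein-coding genes with a window, 52.7% were overlapped. A peak of 4 or more subpeaks was present at 5 of the 7 in class II, the exceptions being Ctss and H2-Ob, and at 15 of the 15 in class I. Over all protein-coding genes 92.7% of the overlapped had one. The genes with no overlapped window were H2-DMb2, H2-Oa and Cd80. H2-DMa had 2 windows and was counted as overlapped, though no merged peak overlapped the window that holds its Y core.

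**Figure D4:**
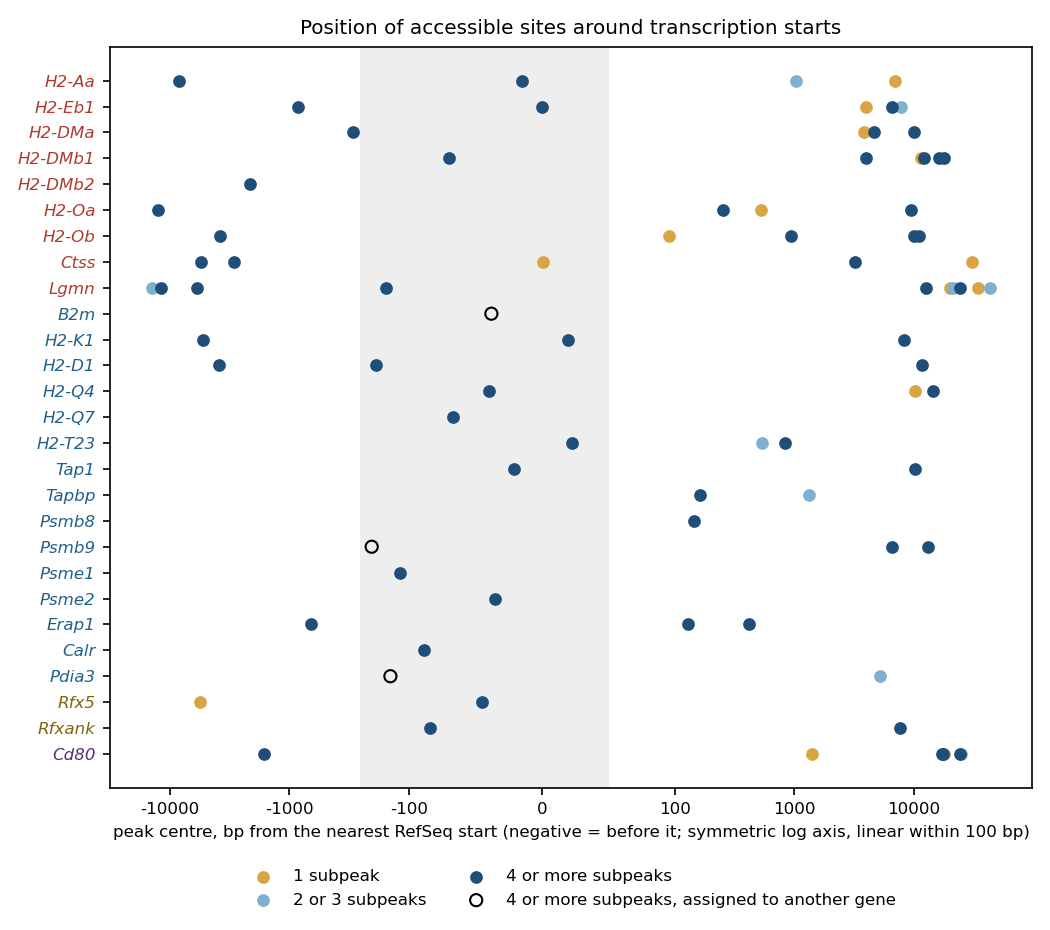
Merged peaks of the 27 genes with a RefSeq promoter window, by distance of the peak centre from the nearest transcription start (symmetric log axis in bp, negative before the start). Colours give the number of subpeaks, the grey band is the window from 250 bases before to 50 after the start, and open circles are peaks over the windows of B2m, Psmb9 and Pdia3 that were assigned to another gene. Each of the 15 class I genes has a peak of 4 or more subpeaks that overlaps the band, and the peaks of 1 subpeak that overlap it belong to Ctss and H2-Ob.

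The classes were set side by side by the number of subpeaks. Of the class II peaks, 61.2% (41 of 67, 95% exact binomial interval 48.5 to 72.9%) had 4 or more subpeaks, and of the class I peaks 80.5% (33 of 41, 65.1 to 91.2%). All merged peaks stood at 57.7%. Peaks with 1 subpeak were 23.9% in class II (16 of 67, 14.3 to 35.9%) and 7.32% in class I (3 of 41, 1.54 to 19.9%), against 20.3% of all merged peaks. The intervals of the classes overlap, they cover counting error alone, and neighbouring peaks are not independent, so no test of the difference of -19.3 percentage points (class II minus class I) was made. At least 1 peak of 1 subpeak belonged to 11 of 12 class II genes, H2-DMb2 being the exception, and to 2 of 17 class I genes, H2-Q4 and Nlrc5. The share of all protein-coding genes with such a peak is not given here. Class II genes also held more peaks each, a median of 5 against 2, so these gene counts do not compare the classes. Of these peaks, 6 of 16 in class II and 1 of 3 in class I lay within 1000 bp of another merged peak.

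**Figure D5:**
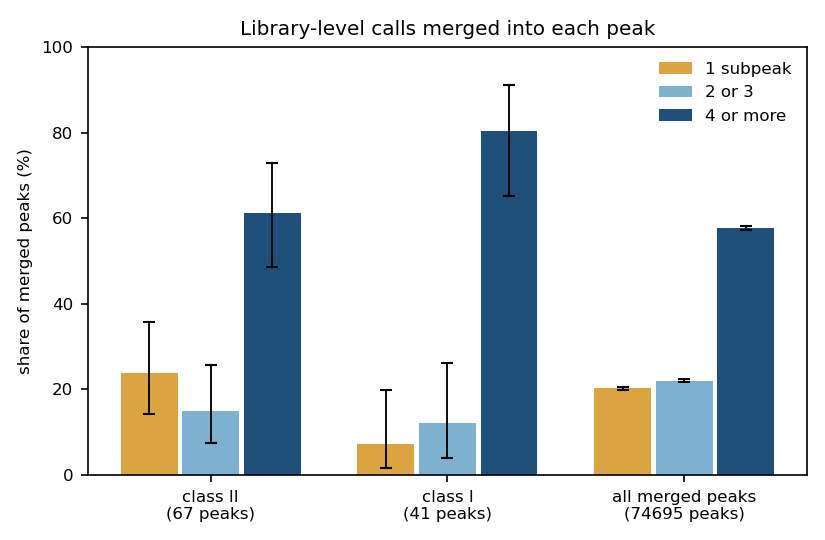
Share of merged peaks by number of subpeaks in class II genes, class I genes and the whole merged list. Bars give percent of peaks and error bars 95% exact binomial intervals, which cover counting error alone. The share with 4 or more subpeaks is 61.2% in class II, 80.5% in class I and 57.7% in all merged peaks.

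Place in the gene differed along with it, and its part in the difference was not tested. Peaks within 1000 bp of a gene end were 22.4% of the class II peaks and 48.8% of the class I peaks, against 21.9% of all assigned merged peaks. Near gene ends 10 of 15 class II peaks (66.7%) and 19 of 20 class I peaks (95.0%) had 4 or more subpeaks, against 74.0% of all assigned peaks there. Farther away the shares were 59.6% (31 of 52) in class II and 66.7% (14 of 21) in class I, against 53.8%. Median widths were 232 bp in class II and 248 bp in class I, against 236 bp over all merged peaks.

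The RFX complex genes had 2 peaks each. Rfxank and Rfxap had 4 or more subpeaks in both of theirs, and Rfxap, which encodes another subunit, had a peak of 8 subpeaks 52 bp outside the higher end of the gene. Rfx5, the DNA-binding subunit, had a peak of 4 subpeaks 45 bp before its start and 1 of 1 subpeak 5564 bp before it. Its promoter window held X1 and Y cores of its own, and the X1 core at 62 bases before the start lay within the peak.

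The costimulation genes had the most peaks per gene. Cd86, a ligand of CD28 and CTLA-4, held 16 peaks, of which 12 had 4 or more subpeaks and 13 lay inside the gene. The peak nearest to its higher end, 36665827 to 36666093 on chromosome 16, had 4 subpeaks. Cd80, the other ligand of these receptors, held 7 peaks, among them a cluster 17025 to 17782 bp after its start with 7, 4 and 1 subpeaks. Its nearest peaks to the RefSeq start lay 1396 bp after it, with 1 subpeak, and 1639 bp before it, with 4. Cd40, the receptor for CD40 ligand, held 5 peaks, of which 4 had 4 subpeaks, including one 165 bp outside its lower end. These genes are also longer than most of the others, at 97203, 38529 and 16041 bp for Cd86, Cd80 and Cd40.

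The authors' comparison of MDM with YSM placed 1 of the 142 peaks in a list. The MDM list held 0 of 142, against 0.145% of all merged peaks, and a count of 0 allows a share of up to 2.11%, taken throughout as 3 counts of the total. The YSM list held 1 of 142, or 0.704% (95% exact binomial interval 0.0178 to 3.86%), against 1.48% of all merged peaks. By class, class II had 0 MDM-listed peaks, which allows up to 4.48%, and 1 YSM-listed peak of 67, the Lgmn peak described above. Class I had 0 of 41 in either list, which allows up to 7.32%. The shares of all merged peaks lie inside these limits, so that a share like that of the whole list could not be told from 0 at these numbers of peaks. No column of the lists is named as a fold change or p-value, and a number column without a description was not used, so the size of the Lgmn difference and its spread between libraries were not analysed here. As the Lgmn peak had 3 subpeaks, at least 1 library had no call at it.

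Listed peaks within 100 kb of these genes but assigned to others were few, and all were in the YSM list. A YSM-listed peak of 3 subpeaks at 10536225 to 10536506 on chromosome 16 lay 5301 bp beyond Ciita and was assigned to Dexi. Another, of 2 subpeaks, lay 86064 bp from B2m and was assigned to Spg11. Within 500000 bp, further YSM-listed peaks lay near B2m, Calr, Cd80, Ciita, H2-T23 and Nlrc5. No MDM-listed peak lay within that distance of any of the 35 genes, of which 18 lie on chromosome 17, where the MDM list had 0 peaks. The MDM list held 108 merged peaks (0.145% of all) and the YSM list 1104 (1.48%). The number of merged peaks within that distance is not given here. The listed peaks found there therefore have no background, and their difference in number between the lists is not a result about these genes.

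Lists of other genes of the pathway had 0 peaks in the MDM list and 0 in the YSM list, against 0.145% and 1.48% of all merged peaks. For the further class I, class II and costimulation genes a count of 0 allows shares of up to 8.11%, 3.37% and 4.92%, so that shares like those of the whole list could not be told from 0. Of all merged peaks 57.7% had 4 or more subpeaks. The 14 further class I genes, among them Tapbpl, Psmb10, Canx, Mr1 and H2-M3, all had a merged peak, with 37 in total and 59.5% of them with 4 or more subpeaks. The 13 further class II genes, among them the cathepsins Ctsl, Ctsb, Ctsd and Ctsh and the NF-Y subunit genes, held 89 peaks, of which 65.2% had 4 or more. Marchf1, the ubiquitin ligase that lowers surface class II and CD86, held 15, and Cd83, which opposes it, held 12, of which 11 had 4 or more. The 8 other costimulation and checkpoint ligand genes held 61 peaks, 52.5% with 4 or more, and Pdcd1lg2 alone held 17. Marchf1, Cd83 and Pdcd1lg2 were singled out after their counts were seen.

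The label of the cells was checked against defining markers, beside 70.3% of protein-coding genes with a merged peak and 1.48% of merged peaks in the YSM list. All 10 microglia and brain macrophage markers, such as Csf1r, Cx3cr1 and P2ry12, had merged peaks, 66 in total, of which 7, all at Sall1, were in the YSM list. Of the 4 neutrophil markers 0 had any, and of the T and NK cell markers 2 of 5 did, with 5 peaks. B cell markers had peaks at 3 of 5 genes, 8 in total, with Cd79a and Cd79b at 0. All 6 dendritic cell markers had peaks, 30 in total, of which 11 were at Flt3, 9 at Zbtb46 and 1, at Cd209a, was in the YSM list. Dendritic cells and B cells also use class II genes. In bulk libraries a site open in a few cells of another type and a site weakly open in all cells cannot be told apart, and the part of such cells in the class II peaks was not tested. All 8 neuron, astrocyte, oligodendrocyte and vessel markers also had peaks, 45 in total, 2 of them in the YSM list, so a merged peak at a gene does not by itself mark a cell type.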

How the data were processed

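Omni-ATAC libraries of sorted mouse brain macrophages, 2 MDM and 2 YSM, were processed by the authors with Trimmomatic 0.39, Bowtie2 2.2.5, Picard and HOMER on mm10, per the submitters' processing notes. The authors merged the per-library peaks with HOMER mergePeaks, per the file headers. The files hold interval positions without a value per library, so replicate error, depth and pairing could not be assessed. Peak settings, any Tn5 shift, the placing of reads with several matches and the thresholds of the 2 differential lists were not given in the sources used here.

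Subpeak numbers were read from the interval names and checked: all 15127 intervals of 1 subpeak were 201 bp wide and 0 of 74695 exceeded their subpeak number times 201 bp. Listed peaks were matched by identical coordinates. RefSeq GRCm38.p6, which shares its main chromosomes with mm10, gave gene intervals, and its promoter table gave starts and strands. A peak inside several genes was counted for each of them and once in totals. Coordinates are 1-based. All 35 genes are named, and per-site values go to class II genes, class I genes with a peak near an end, and listed peaks, though not to every peak of these genes. The genes, lists and motifs were chosen with earlier results of these data known. Counts were made with Python 3.11.15 and pandas 2.3.3, intervals with scipy 1.17.1, and the assignment was tested on simulated data. No test across peaks or genes was run. The list of genes of upstream interferon-gamma signalling is not reported here.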

Additional observations from a re-analysis of the deposited data

How the results depend on the processing

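Of 54 values over 7 results under an alternative, 47 stayed within the tolerance and 7 moved, where the tolerance is 1.5 times for a count and the 95% exact binomial interval for a share. With peak centres required inside the gene body, class II had 37 peaks, 45.95% of them with 4 or more subpeaks, class I had 18, and 24 of the 35 genes had a peak. Among peaks of 2 or more subpeaks, 80.39% of the class II peaks had 4 or more, against 86.8% in class I, since peaks of 1 subpeak were removed by construction. Counts within the tolerance went as low as 51 class II peaks (2 or more subpeaks) and 31 class I peaks (peaks within 1000 bp merged). Among peaks of 4 or more subpeaks, class II had 41, class I 33, and the YSM-listed count was 0, because the Lgmn peak has 3. With any listed peak within 100 kb of a gene, the YSM-listed count was 3, which adds the peaks near Ciita and B2m. The class II share with 4 or more subpeaks was below the class I share under each alternative that gave both. These alternatives drop or regroup the same peaks, so this is no independent support for the difference. The shares were closest among peaks of 2 or more subpeaks. Peaks over the promoter windows, added after seeing the data, gave 43 class I peaks and a peak at 35 of 35 genes. The share with 4 or more subpeaks was not recomputed among peaks of 4 or more. No paired analysis was possible because the files hold no value per library, and for the same reason no replicate could be left out. Peak numbers per gene limit all shares given here, and the depth of the libraries was not analysed.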
